A study of Mus musculus with 18 samples.

Results

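Klf2, Klf4, Sox7, Sox17, Sox18, Erg and Tcf4, which encode transcription factors active in the endothelium, and Nos3 and Icam1, a pair of genes that such factors act on, were followed in single cells of the postnatal mouse heart. These 9 genes were chosen by name from the 35843 Ensembl genes counted in every sample, with earlier results of these data known, and no threshold on their values was used. Cells came from mice labelled Myh6/Esr1-Tomato, a cross of Myh6-cre/Esr1 mice with a tdTomato reporter, in which tamoxifen, given to the mothers shortly after birth, switches on a red reporter in cardiomyocytes (CMs). Hearts without virus were taken on day 4 (P4), day 7 (P7), day 14 (P14) or day 28 (P28) after birth and are called wild-type here. A further set of P28 hearts, labelled with the same strain, had received lentivirus in the myocardium at P1, with a hairpin against Jun (shJun) or a non-targeting hairpin (shNT), and the cells that took up the virus were not marked in the tables. The 18 samples were ICELL8 nanowell chips, 2 each at P4, P7 and P14, 6 at P28 and 6 of the knockdown, each of the last with cells of both hairpins.

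Endothelial cells line the vessels and sense flow. Laminar flow acts through the kinases MEKK3, MEK5 and ERK5 on MEF2 factors, which switch on Klf2 and Klf4. These zinc finger factors raise Nos3, the endothelial nitric oxide synthase, and thrombomodulin, and restrain adhesion molecules such as ICAM1, which binds leukocytes. SOX7, SOX17 and SOX18 form the SoxF group and shape arterial and lymphatic fate, ERG is an ETS factor that keeps endothelial identity, and TCF4 is an E protein, a partner of tissue-specific helix-loop-helix factors that is also made in other cell types.

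The upstream DNA of Klf2 and Klf4 is shown because the kinase cascade above ends in MEF2 binding. Each window is 200 bases long and runs from 250 to 51 bases before the RefSeq start in GRCm38.p6, at chr8:72318812-72319011 on the plus strand for Klf2 and at chr4:55532526-55532725 on the minus strand for Klf4. Capitals mark a MEF2-like word (CTA and TAG with NNNN between them) or a GC box (GGGCGG or its reverse complement), the word that KLF and SP factors prefer.
Klf2: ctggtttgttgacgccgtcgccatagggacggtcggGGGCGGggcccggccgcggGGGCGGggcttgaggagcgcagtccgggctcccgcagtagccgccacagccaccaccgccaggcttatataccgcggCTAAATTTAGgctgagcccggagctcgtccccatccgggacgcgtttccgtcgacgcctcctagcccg
Klf4: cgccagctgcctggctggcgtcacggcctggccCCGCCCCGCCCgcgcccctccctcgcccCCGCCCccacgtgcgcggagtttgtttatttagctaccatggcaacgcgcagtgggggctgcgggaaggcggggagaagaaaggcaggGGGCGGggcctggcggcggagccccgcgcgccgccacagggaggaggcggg
The Klf2 window held 1 MEF2-like word and 2 GC boxes, and the Klf4 window held 0 MEF2-like words and 4 GC boxes, the leading pair of which overlap. Among 32851 windows of the same length in the RefSeq table, 2.58% held the MEF2-like word and 24.6% a GC box on either strand. Both windows were rich in G and C, at 70.5% for Klf2 and 76.5% for Klf4. The only other members in the promoter table were Erg, with 3 starts, and Icam1, and no MEF2-like word was in their windows. These matches describe letters and not binding.

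In GENCODE vM21 on GRCm38 the genes lie at chr8:72319033-72321656 (Klf2), chr4:55527143-55532466 (Klf4), chr14:63943673-63950732 (Sox7), chr1:4490931-4497354 (Sox17), chr2:181669836-181671640 (Sox18), chr16:95359169-95586593 (Erg), chr18:69343356-69689079 (Tcf4), chr5:24364810-24384474 (Nos3) and chr9:21015985-21028817 (Icam1). Sox17 overlaps Gm37587, Nos3 overlaps Gm15587 and Atg9b, and Icam1 overlaps Gm47079, all on the opposite strand. Whether the counting used strand is not given in the sources used here, so reads of these pairs may not be told apart.

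Chips held between 11161784 and 133264535 unique molecular identifiers (UMIs, each 1 captured molecule), and 19999 cells passed the filter. P28 chips 5 and 6, the source of P28 animals 4 and 5, were the shallowest at 11161784 and 12328844 UMIs, and on P14 chip 2, the source of P14 animal 2, 552 of 1249 cells passed. Of 5051 distinct well barcodes, 4890 were used on more than 1 chip, so cells were told apart by chip and barcode together. The well tables named 11 wild-type and 4 knockdown animals, which are the replicates here. Clusters were named from fixed markers, without any member gene, and all 8 endothelial markers were detected in each sum of Endothelial-like cells, where the marker total lay between 2197 and 6880 CPM. Each animal gave between 87 and 343 Endothelial-like cells. CPM stands for the UMIs of a gene per 1000000 UMIs of the summed cells of 1 class and animal, in which fewer expressing cells and less RNA per cell cannot be told apart.

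Of the members, Tcf4 gave the most UMIs in Endothelial-like cells and Icam1 nearly none. Over the 11 wild-type animals the median CPM was 1176 for Tcf4, 168 for Klf2, 149.7 for Erg, 129 for Sox18, 122 for Klf4, 107 for Sox7, 97.1 for Sox17, 11.7 for Nos3 and 0.927 for Icam1. Per 1000 exon bases the order of these medians changed to Klf2 at 91.0, Sox18 at 79.7, Erg at 43.2, Tcf4 at 43.0, Klf4 at 40.1, Sox7 at 32.3, Sox17 at 20.4, Nos3 at 2.83 and Icam1 at 0.213. Exon bases were summed over all transcripts of a gene, which for Tcf4 come to 27382.

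Sox17 was the member whose Endothelial-like levels stood clear of every other class. Its CPM in Endothelial-like cells was lowest at 44.8, with a median of 97.1 and a highest value of 159.8, and no sum of another class in the wild-type hearts passed 39.9. In Endocardial-like cells, the inner lining of the chambers, Sox17 reached 30.0 at most over 9 animals. Sox7 did not separate these linings. Its CPM ran from 45 to 272 with a median of 60.1 in Endocardial-like cells and from 20.6 to 157 with a median of 107 in Endothelial-like cells, so the ranges overlapped. Sox18 ran from 0 to 65.9 CPM in Endocardial-like cells and from 30.5 to 222 in Endothelial-like cells.

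Nos3 had its highest median in Endocardial-like cells. There its CPM lay between 0 and 155 with a median of 39.0, against 3.17 to 31.1 with a median of 11.7 in Endothelial-like cells. At P4, Nos3 was at 39.0 and 62.0 CPM in the Endocardial-like cells of the pair of animals and at 15.3 and 17.3 in their Endothelial-like cells. At P7 the Endocardial-like sums rested on 17 and 20 cells with 0 and 1 Nos3 UMIs. Together these cells held 1024326 UMIs, which puts Nos3 at 0.976 CPM, while Klf2 gave 196 UMIs in them. The Endocardial-like cluster of P4 stood at 52.5 Nos3 CPM, and this difference was not tested.

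Klf2 and Klf4 were less tied to the endothelium. The median Klf2 CPM was 218 in Endocardial-like, 168 in Endothelial-like, 147 in Macrophage-like, 117 in T cell-like, 84.9 in Fibroblast-like and 42.0 in CM-like cells. Neighbours in this order overlapped over animals, and the Endothelial-like range of 98.4 to 410.3 lay above the CM-like range of 3.88 to 86.6. For Klf4 the medians were 122 in Endothelial-like, 108 in Fibroblast-like, 92.0 in Endocardial-like, 85.3 in Macrophage-like and 29.1 in CM-like cells. Erg had a median of 149.7 in Endothelial-like, 77.6 in Endocardial-like, 42.5 in Mural-like and 20.9 CPM in Fibroblast-like cells. Tcf4 was found in every class, from a median of 1176 in Endothelial-like through 637 in Fibroblast-like and 544 in Mural-like and 217 in CM-like cells down to 57.4 CPM in Granulocyte-like cells. Icam1, the only surface adhesion molecule among the members, had a median of 1.58 CPM or less in each named class.

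**Figure D1:**
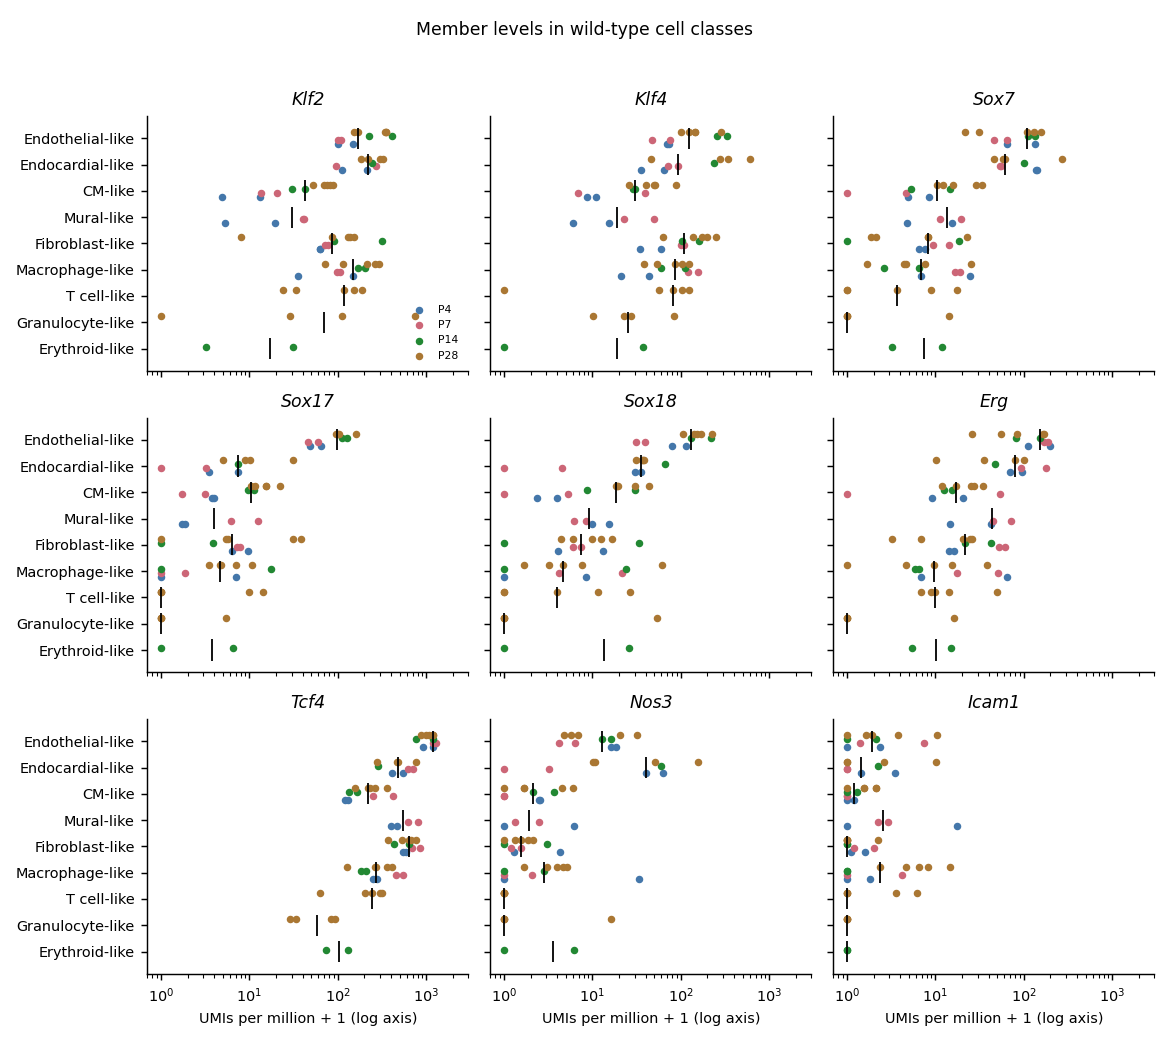
CPM + 1 of each member (log axis) in the named classes of the wild-type hearts, where each point is 1 animal, colours are stages and the vertical bar is the median over animals. Sox17 in Endothelial-like cells lies between 44.8 and 159.8 CPM, to the right of every other named class, whereas Klf2, Klf4 and Tcf4 spread over many classes.

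Over 68 wild-type sums of all classes, the genes most like each member were ranked by Pearson's r of log2(CPM + 1) among 9508 genes. Sox7 was most like Tie1 (r = 0.83), Cdh5 (0.83) and Mmrn2 (0.83), of which Cdh5 encodes the cadherin of endothelial junctions. Sox17 was most like Cd300lg (0.78), Sox18 (0.75) and Abcb1a (0.75), and Sox18 was most like Slc9a3r2 (0.80), Abcb1a (0.79) and Cd300lg (0.77). Klf2 was most like Pnrc1 (0.74), Thbd (0.73) and Gngt2 (0.72), and Klf4 was most like Ahnak (0.73), Thbd (0.72) and Klf2 (0.69). For Erg the genes were Gm6166 (0.79), Mecom (0.78) and Efna1 (0.77), and for Tcf4 they were Tnfaip1 (0.82), Ccnd1 (0.82) and Mpzl1 (0.81). Nos3 was most like Gm14328 (0.68), Acer2 (0.68) and Fabp5 (0.65), and Icam1, which had few UMIs, was most like Idua (0.53), Hmox2 (0.50) and Sft2d2 (0.47). These r values are descriptions over sums that share animals, chips and classes.

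To ask when the members changed in the growing endothelium, neighbouring stages were compared in Endothelial-like cells. Klf4 and Sox18 rose between P7 and P14, and 7 of the 9 members had a positive log2 change there. Between P4 and P7, and between P14 and P28, no member passed the threshold. Klf4 stood at 72.2 and 69.2 CPM in the P4 animals and at 74.3 and 46.2 in the P7 animals. In the P14 animals it stood at 256 and 335 CPM, and at P28 at 142, 144, 284, 100.4 and 122 CPM in animals 1 to 5. Both P14 animals were thus above every P4 and P7 animal, and P28 animal 3 lay among the P14 values while the other P28 animals lay below them. The log2 change from P7 to P14 was 2.80 ± 0.520 (SE, 2 animals against 2), a 6.95-fold rise, with adjusted p = 0.0292 in edgeR's quasi-likelihood test over 14528 genes.

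Sox18 was at its lowest in the P7 animals, with 38.3 and 30.5 CPM, after 114 and 77.7 in the P4 animals. The P14 animals had 216 and 129 CPM, and P28 animals 1 to 5 had 222, 169.8, 139, 104 and 149. The P7 animals were the lowest 2 of the 11, and P14 and P28 overlapped. From P7 to P14 the log2 change was 2.93 ± 0.550, or 7.64-fold, with adjusted p = 0.0292 in edgeR. Between P4 and P7 the log2 change was -1.35 ± 0.522, with an unadjusted p of 0.0201 and an adjusted p of 0.990 in edgeR. Of all genes tested 0.564% were called between P7 and P14 (0.310% higher and 0.255% lower), against 2 of the 9 members, both higher.

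Klf2 was close to the threshold. Its CPM was 98.4 and 149 in the P4 animals, 99.4 and 108 in the P7 animals and 223 and 410.3 in the P14 animals. P28 animals 1 to 5 had 347, 344, 348, 153 and 168. The P14 animals were above all P4 and P7 animals, and P28 animals 4 and 5, from the shallow chips, were below the other P28 animals. The log2 change from P7 to P14 was 2.06 ± 0.479, with adjusted p = 0.0795 in edgeR. It passed with DESeq2 (adjusted p = 0.0022), with cells thinned to at most 5000 UMIs (0.0427) and without P28 animals 4 and 5, which share the estimate of spread (0.0115). Without P28 animal 4 alone the edgeR value was 0.0485. Over the 22 alternatives for Klf2 the adjusted p ran from 0.0022 to 0.637, with the log2 change between 1.61 and 2.53.

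The other SoxF genes had the same order without passing in edgeR. Sox17 stood at 59.2 and 44.8 CPM at P7 and at 126 and 109 at P14, a log2 change of 1.74 ± 0.502 with adjusted p = 0.155 in edgeR and 0.0192 in DESeq2. Over the alternatives for Sox17 the adjusted p ran from 0.0192 to 0.770. Sox7 stood at 63.7 and 45 CPM at P7 and at 132 and 109 at P14, a log2 change of 1.72 ± 0.760 with adjusted p = 0.368 in edgeR. In P14 animal 2, 51% of the Sox7 UMIs came from 1 cell. At P28 Sox7 stood at 107, 157 and 129 CPM in animals 1 to 3 and at 30.3 and 20.6 in animals 4 and 5 of the shallow chips.

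Erg and Tcf4 had log2 changes smaller than their SE from P7 to P14. Erg had 109.9 and 199 CPM in the P4, 189 and 167 in the P7 and 79.6 and 149.7 in the P14 animals, and lay between 25.2 and 167 over the P28 animals, so that both P14 animals were below both P7 animals. Its log2 change from P7 to P14 was -0.19 ± 0.649 (adjusted p = 0.937 in edgeR). Tcf4 stood between 774 and 1286 CPM in all 11 animals, and its log2 change from P7 to P14 was 0.16 ± 0.355 (adjusted p = 0.893 in edgeR). The sign of the Tcf4 value turned with total UMIs in place of TMM scaling (-0.32). Nos3 had 3.17 and 5.37 CPM in the P7 animals, which were below those of P4 (15.3 and 17.3) and P14 (15.4 and 11.7), and lay between 3.74 and 31.1 over the P28 animals. Its change from P7 to P14 was 2.23 ± 1.1 on the log2 scale, with adjusted p = 0.419 in edgeR. Of the 40 Nos3 UMIs in P7 animal 2, 80.0% came from 1 cell, and of the 69 in P28 animal 1, 82.6%. Icam1 gave between 0 and 46 UMIs per wild-type animal, too few for a change to be detectable.

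**Figure D2:**
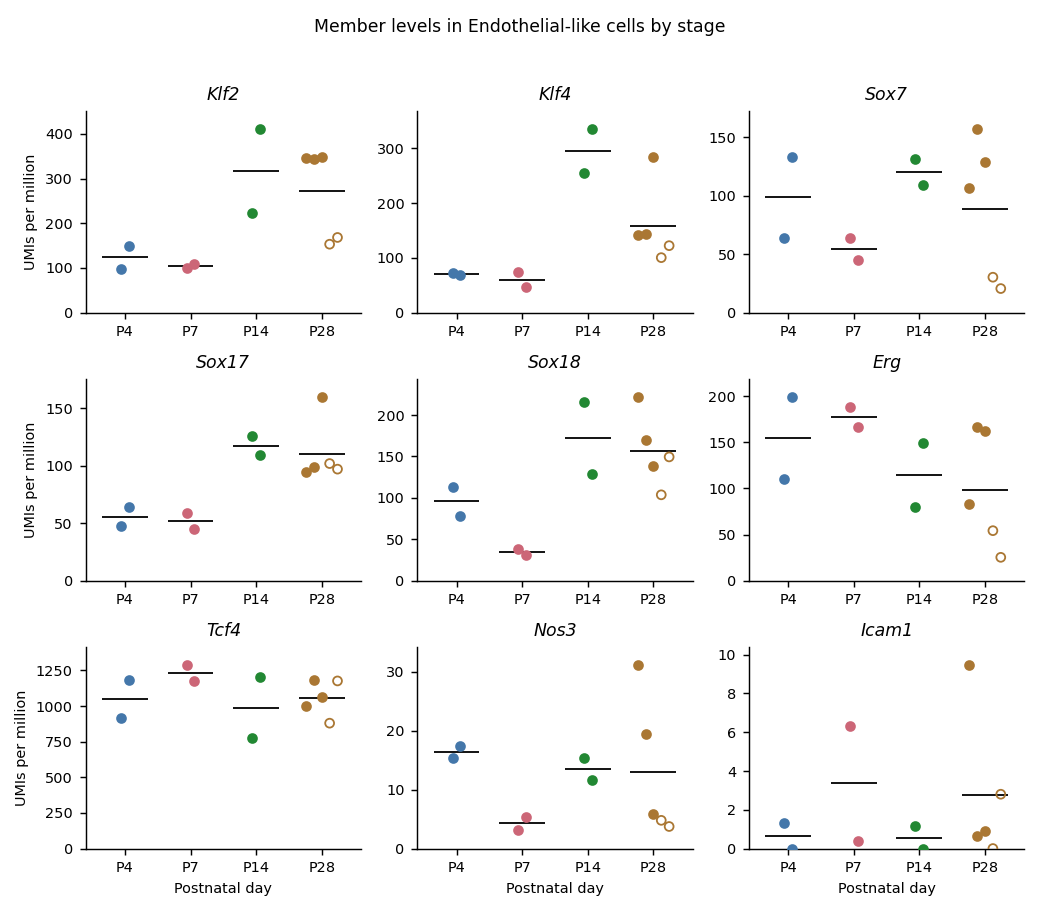
CPM of each member in Endothelial-like cells by stage, where each point is 1 animal, the line is the mean of a stage and open points are P28 animals 4 and 5 from the shallow chips. Klf4 in the P14 animals (256 and 335) lies above all P4 and P7 animals, and Sox18 in the P7 animals (38.3 and 30.5) lies below all others.

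**Figure D3:**
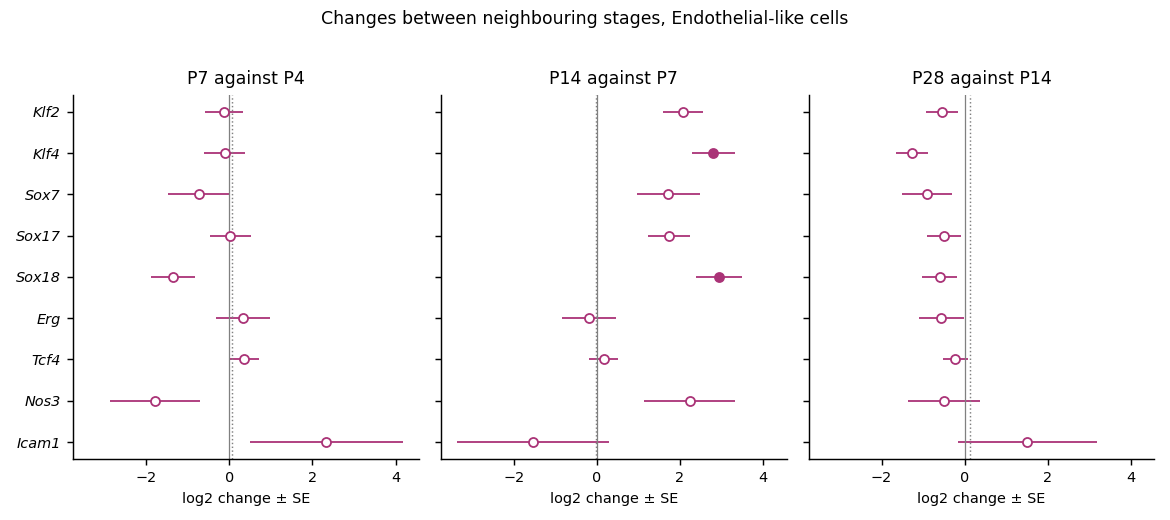
Log2 change ± SE of each member between neighbouring stages in Endothelial-like cells, from edgeR on the TMM scale, with filled points for adjusted p below 0.05 and a dotted line at the median of all genes tested. Klf4 (2.80) and Sox18 (2.93) from P7 to P14 are the filled points.

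Several other measures were read beside the step from P7 to P14, and some of them overlapped between these stages. In its methods for bulk samples the paper gives a digestion kit for P7 hearts and perfusion for older hearts. It does not say which was used for the P4 and P14 hearts, and so age and digestion cannot be told apart. The share of Endothelial-like cells with an Mki67 or Top2a UMI, genes of dividing cells, was 63.4 and 54.3% in the P4, 73.1 and 77.1% in the P7 and 6.41 and 3.52% in the P14 animals, and between 8.33 and 19.9% over the P28 animals. When those cells were left out, both calls were lost, with a log2 change of 2.72 for Klf4 (adjusted p = 0.0756) and of 2.05 for Sox18 (0.233) in edgeR. Xist, made by female cells, stood at 185 and 423 CPM in the P4 animals, 0.414 and 0.537 at P7, and 112 and 0 at P14, and its part in these results was not tested. The summed level of 15 immediate early genes, which dissociation induces, was 2699 and 2026 CPM at P7 and 1473 and 2352 at P14. CM markers took 1.18 and 1.58% of the UMIs of the P7 sums and 1.64 and 1.62% at P14. The sum of the 8 endothelial markers was 3760 and 3398 CPM at P7 and 2197 and 4158 at P14, and per 1000 UMIs of these markers Klf4 stood at 19.8 and 13.6 UMIs at P7 and at 116 and 80.6 at P14. Sox18 on that scale stood at 10.2 and 8.97 at P7 and at 98.3 and 31.1 at P14.

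Scaling also bore on both calls. With total UMIs in place of TMM the log2 changes were 2.29 for Klf4 (adjusted p = 0.0795) and 2.32 for Sox18 (0.0668) in edgeR, and the split of all calls moved from 45 higher and 37 lower to 21 higher and 66 lower. The median change of all genes was -0.02 with TMM and -0.53 with total UMIs. Leaving out either animal of P4, P7 or P14 also lost both calls and took the count over all genes from 82 to 27 or fewer, with log2 changes between 2.42 and 3.06 for Klf4 and between 2.05 and 3.41 for Sox18 over all animals left out in turn. At a lower clustering resolution the adjusted p was 0.159 for Klf4 and 0.0789 for Sox18 in edgeR, and with sums per chip Sox18 was not called either (0.0807).

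Klf2 and Klf4 were seen in a larger share of the cells from P14 on. When each cell was thinned to 2000 UMIs, Klf2 was seen in 12% of Endothelial-like cells at P7 (67 of 558, exact Clopper-Pearson 95% interval 9.43 to 15%) and in 26.5% at P14 (127 of 480, 22.6 to 30.7%). For Klf4 the shares were 10.4% (58 of 558) and 26.0% (125 of 480), and for Sox18 they were 4.84% (3.21 to 6.96%) and 16.0% (12.9 to 19.6%). Sox7 was seen in 8.78% at P7 and 8.96% at P14, and Tcf4 in 78.1% and 51.3%. The thinning left out 9 P7 and 5 P14 cells, and at all depths Klf2 was seen in 34.4% and 47.2%, with median depths of 19730 and 12390 UMIs. In CM-like cells at P14, thinned alike, the shares were 6.17% for Klf2, 3.57% for Klf4 and 1.92% for Sox18. Both Klf2 and Klf4 were seen in 8 of 558 cells at P7, in 49 of 480 at P14 and in 50 of 813 at P28. At least 2 of the SoxF genes were seen in 8 of 558 cells at P7 and in 20 of 480 at P14. Cells of 1 animal are not replicates, and the intervals cover counting error only.

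Between P14 and P28 Klf4 had the lowest unadjusted p of the members, and it was not called. Its log2 change was -1.26 ± 0.388 with an unadjusted p of 0.00523 and an adjusted p of 0.517 in edgeR. The 8 other members had adjusted p between 0.697 and 0.892, and 8 of the 9 changes were negative. DESeq2 called 0 members as well. Of all genes 0% were called by edgeR in this comparison, with 1200 at an unadjusted p below 0.05 and 119 called by DESeq2. Between P4 and P7 the adjusted p of all 9 members was 0.990 or more, and 0.00688% of genes were called by edgeR, against 0 of the members, of which Sox18 was the 1 at an unadjusted p below 0.05, and DESeq2 called 0 of them. Cell fractions differed within P28. The fraction was not given for P28 animal 3, nor for the P4 and P7 animals. In animals 1 and 2 the Endothelial-like cells came from a CM chip (123 and 162 cells) and a non-CM chip (48 and 101 cells), with Klf2 at 249 and 257 CPM on the former and at 536 and 442 on the latter. Sox17 stood at 75.8 and 93.6 on the CM chip and at 131 and 105 on the non-CM chip, so both genes were higher on the non-CM chip in both animals. Tcf4 had the same order, at 680 and 820 on the CM chip and 1615 and 1586 on the other, as had Nos3 and Icam1 on fewer UMIs. Klf4, Sox7, Sox18 and Erg were lower on the non-CM chip in animal 2.

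Within the endothelium Sox7 had a lower CPM in cells that held a UMI of Mki67 or Top2a, genes of dividing cells. In each of the 10 wild-type animals with at least 10 Endothelial-like cells that held an Mki67 or Top2a UMI, Sox7 had a lower CPM in those cells than in the others of the same animal, with medians of 56.2 and 126. At P4 it stood at 48.4 and 98.7 CPM in the former against 114 and 232 in the latter, and at P7 at 60.2 and 38.6 against 79.0 and 77.2. Klf4 and Sox18 were each lower in 8 of the 10 animals, Nos3 in 7, Erg in 6, and Klf2, Sox17, Tcf4 and Icam1 in 5. In the knockdown hearts Sox7 had a lower CPM in such cells in 3 of the 4 animals, and in shJun animal 2 it stood at 246 CPM in them against 173 in the others. This split was chosen after the data were seen and is given without a test. The share of all genes that were lower in each of the 10 animals is not given. In P28 animal 1, leaving out the 34 of 171 cells with such a UMI lowered the UMIs from 2220923 to 1368418. Those 34 cells thus held more UMIs each, and the part of depth in the Sox7 values was not tested.

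**Figure D4:**
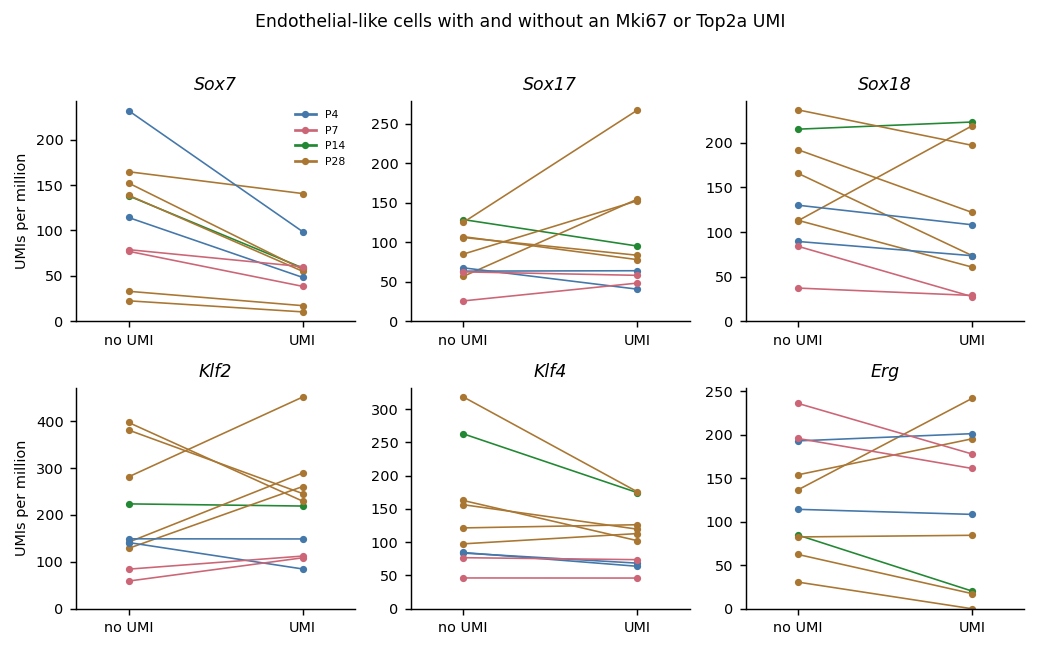
CPM of 6 members in Endothelial-like cells without (left) and with (right) an Mki67 or Top2a UMI, where each line joins both values of 1 wild-type animal, colours are stages, and 10 animals with at least 10 such cells are drawn. All 10 Sox7 lines fall, and the Klf2 and Sox17 lines run both ways.

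The genes around the members were read from fixed lists. Of 7 tested Klf2 and Klf4 target genes, 2 rose from P7 to P14, with a list median log2 change of 1.27 against -0.02 over all genes. Of these 7 genes 5 had an unadjusted p below 0.05, while over all 14528 genes 0.564% were called and 1850 had such a p. Thbd, which encodes the anticoagulant thrombomodulin, stood at 38.1 and 29.3 CPM at P7 and at 133 and 306 at P14, a log2 change of 3.13 with adjusted p = 0.0352 in edgeR. Aqp1, a water channel of capillaries, stood at 108 and 94.2 CPM at P7 and at 374 and 367 at P14, a log2 change of 2.41 with adjusted p = 0.0412 in edgeR. Of 11 genes upstream of Klf2 in the flow cascade, 0 were called by edgeR or DESeq2 and 1 had an unadjusted p below 0.05, with a median log2 change of 0.29. Of 10 SoxF and Erg target genes 0 were called by either tool and 1 had an unadjusted p below 0.05, with a median of 0.48, and of 6 other ETS factors 0 were called by either tool and 0 had such a p, with a median of 0.17. Among 8 E proteins and partners of Tcf4, Id1, an inhibitor of E proteins, rose by 2.85 on the log2 scale (adjusted p = 0.0338 in edgeR), 3 genes had an unadjusted p below 0.05, and the list median was 1.17. Of 8 Nos3 regulators and of 8 genes of adhesion and the NF-kB response 0 were called by edgeR and 1 of each, Gch1 and Nfkbia, by DESeq2, with medians of -0.41 and 0.20 and 1 gene of each list at an unadjusted p below 0.05. Of 15 immediate early genes, Btg2, which restrains cell division, rose by 2.30 (adjusted p = 0.0325 in edgeR), 5 had an unadjusted p below 0.05, and the median of that list was 0.10. Of the 8 endothelial markers 0 were called by either tool and 1 had an unadjusted p below 0.05, with a median of 0.27. Beyond this step, 0 genes of these lists were called by edgeR from P4 to P7 or from P14 to P28, where 5 and 8 had an unadjusted p below 0.05 and DESeq2 called 0 and 1, the chemokine Ccl2. Thbd, Aqp1, Id1 and Btg2 lost the edgeR call when either animal of P4, P7 or P14 was left out, with total UMIs in place of TMM and without cells that held an Mki67 or Top2a UMI. Their adjusted p without P7 animal 2 lay between 0.576 and 0.598.

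The study asked which factors set CMs at P7 apart, and so the members were read in CM-like cells too. None of the 8 members tested was called there, while 4.30% of 13926 genes were called by edgeR (2.20% higher and 2.10% lower at P7), and 4 members had an unadjusted p below 0.05, as did 3285 of all genes. DESeq2 called 0 members too. The P7 sums rested on 10 and 28 cells, and the count over all genes, 599, became 319 without the former animal and 1018 without the latter. Klf2 had 12.6 and 19.6 CPM in the P7 animals, 12.3 and 3.88 in the P4 animals and 42.0 and 29.4 in the P14 animals, and lay between 50.9 and 86.6 over the P28 animals. The P7 values were thus above or near those of P4 and below all later animals, and they rested on 6 and 27 UMIs. Against the mean of the other stages the log2 change of Klf2 was -1.17 ± 0.519 (adjusted p = 0.182 in edgeR), and it was 0.75 when variable genes were scaled before clustering. With that scaling the P14 animals kept 16 and 21 CM-like cells, against 419 and 311 in the main fit, so the cells compared were not alike.

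Tcf4 was highest in the P7 animal with 10 CM-like cells. It had 415 and 251 CPM in the P7 animals, 119.8 and 129 in the P4 animals and 164 and 134 in the P14 animals, and lay between 154 and 356 over the P28 animals. Its log2 change at P7 was 0.50 ± 0.329 with adjusted p = 0.362 in edgeR, beside a median of -0.31 over all genes. With scaled variable genes in clustering the edgeR value was 1.1 with adjusted p = 0.0453, and over the alternatives for Tcf4 the adjusted p ran from 0.0453 to 0.952. In that scaled clustering the P14 sums held 16 and 21 CM-like cells, far fewer than in the main fit. The SoxF genes were near the floor at P7, with 1 and 1 UMIs of Sox17, 0 and 5 of Sox7 and 0 and 6 of Sox18. Sox17 had a log2 change of -3.09 (adjusted p = 0.0798 in edgeR), Sox7 one of -2.48 (0.149) and Sox18 one of -2.22 (0.152), each beside the median of -0.31. Erg had 0 UMIs in the P7 animal with 10 cells and stood at 53.0 CPM in the other, and its log2 change was 0.46 (adjusted p = 0.742 in edgeR). Klf4 had 37.9 and 5.81 CPM in the P7 animals, 7.68 and 9.86 in the P4 animals and 25.0 or more in the later ones, with a log2 change of -0.77 (0.448). Nos3 had 0 UMIs in both P7 animals, as in P28 animal 5, and 5.06 CPM at most elsewhere in the wild-type CM-like cells, with adjusted p = 0.228 in edgeR, and for Icam1 the UMIs were too few for the test.

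Endothelial RNA was present in the CM-like sums. The 8 endothelial markers summed to between 136 and 683 CPM in the wild-type animals, lowest in P4 animal 2 and highest in P28 animal 5, and 2 of the 8 were at 0 in P7 animal 1. Of the CM-like cells with a Klf2 UMI, 85.2% (P4), 100% (P7), 78.95% (P14) and 90.5% (P28) also held a UMI of an endothelial marker. Among all CM-like cells, 94 of 351 (P4), 2 of 38 (P7), 234 of 730 (P14) and 407 of 1986 (P28) held none. Most CM-like cells thus held one whether or not Klf2 was seen. In cells without one, Klf2 stood at 11.9 CPM at P4, 22.8 at P14 and 59.7 at P28, and 2 such cells were left at P7. Negative control wells, which received no cell, held 6 Klf2 UMIs among 51790, or 116 CPM with an exact Poisson 95% interval of 42.5 to 252. These wells held a median of 198 UMIs each, against medians of 3979 to 16986.5 per cell over the wild-type animals. The interval is thus a share of the UMIs in near-empty wells and not an amount per well. All 5 CM-like Klf2 levels at P28 lay within this interval, and the 6 earlier ones lay below it. The Endothelial-like Klf2 levels at P4 and P7, between 98.4 and 149 CPM, and some later ones lay within it too. For Tcf4 the interval was 133.7 to 429.2 CPM, which held both P7 CM-like levels (415 and 251). A level within these intervals does not show that a cell held no more of the gene than an empty well. The 6 Klf2 UMIs were spread over 4 of 90 wells. The part of such RNA in the CM-like and Endothelial-like levels was not tested.

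Genes around the members were read in the CM-like cells in the same way, against a median log2 change of -0.31 over all genes at P7. Of 8 E proteins and partners, Tal1, a blood and vessel factor that binds DNA with TCF4, rose by 3.53 (adjusted p = 0.00966 in edgeR) and Id1 fell by 3.75 (0.0181), with a list median of -0.64. Of 11 genes upstream of Klf2, Mef2a rose by 1.26 (0.0313), with a median of -0.38, and of 8 Nos3 regulators Nostrin, which carries the enzyme off the membrane, fell by 4.83 (0.0378), with a median of -0.37. Of 15 immediate early genes, Zfp36 fell by 5.25 (0.0378) and Fosb by 7.81 (0.0424), and the list median was -1.03. In the order of these 4 lists, 4, 2, 1 and 5 genes had an unadjusted p below 0.05. Of these 6 genes Tal1 kept adjusted p at or below 0.0378 with each animal left out in turn, while the other 5 passed the threshold in some of these fits and not in others. DESeq2 called these 6 and Heg1, a junction gene upstream of Klf2. The falls of Zfp36, Fosb and Nostrin rest on P7 sums of 10 and 28 cells, where few UMIs can give large log2 values. With each animal left out in turn, Zfp36 ran from -9.64 to -4.76, Nostrin from -9.20 to -4.33 and Fosb from -7.96 to -7.32. The remaining lists held 0 called genes in edgeR and in DESeq2, with medians of -0.75 for 7 Klf target genes, -0.46 for 10 SoxF and Erg target genes, -0.42 for 6 other ETS factors, -0.64 for 8 genes of adhesion and the NF-kB response and -0.69 for the 8 endothelial markers. Of the genes in these 5 lists, 2, 4, 0, 0 and 1 had an unadjusted p below 0.05.

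The knockdown asked what a hairpin against Jun, which encodes a subunit of the AP-1 factor, does in the P28 heart. Jun itself stood at 26.3 and 31.5 CPM in the CM-like cells of shJun animals 1 and 2 and at 54.2 and 60.3 in those of shNT animals 1 and 2. Both shJun animals were thus below both shNT animals, and on each of the 4 chips of the CM fraction the shJun wells were lower than the shNT wells, with 13.8 against 52.2, 34.7 against 50.2, 25.3 against 63.9 and 37.6 against 54.4 CPM. The log2 difference was -1.01 ± 0.252 with an unadjusted p of 0.00683 and an adjusted p of 1 in edgeR over 17993 genes, and the adjusted p was 0.167 in DESeq2. In Endothelial-like cells Jun was not lower with its hairpin. It stood at 119 and 129 CPM in the shJun and at 106 and 82.2 in the shNT animals, a log2 difference of 0.27 ± 0.501 with an unadjusted p of 0.613 in edgeR. The difference between both cell classes was 1.3 ± 0.637 on the log2 scale, with an unadjusted p of 0.0771 and an adjusted p of 1 in edgeR. The Endothelial-like comparison is thus between wells labelled shJun and shNT in which the target did not differ beyond its spread.

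None of the 9 members was called between shJun and shNT Endothelial-like cells. Of all genes 0% were called by edgeR there, with 607 of 13711 at an unadjusted p below 0.05 and 126 called by DESeq2, and DESeq2 called 0 members. With 2 animals on each side, 1 of the members, Icam1, had an unadjusted p below 0.05, and each adjusted p was 1 when rounded. Klf2 stood at 305 and 471 CPM in the shJun and at 212 and 367 in the shNT animals, a log2 difference of 0.22 ± 0.514. Klf4 stood at 289 and 112 against 272 and 223, a log2 difference of -0.43 ± 0.557. For each of these flow-responsive factors the hairpins overlapped. Between the animals that shared chips, Klf2 was higher with shJun in both pairs and Klf4 in 1 of 2, and with these pairs as a block the log2 difference was 0.30 for Klf2 and -0.59 for Klf4, each with adjusted p = 1 in edgeR.

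The SoxF genes overlapped between hairpins too. Sox7 stood at 108 and 195 CPM in the shJun and at 249 and 53.8 in the shNT animals (-0.04 ± 0.702). Sox17 stood at 81.6 and 33.2 against 22.1 and 75.0 (0.01 ± 0.904), and Sox18 at 206 and 218 against 197 and 392 (-0.68 ± 0.539). For each SoxF gene the shNT animals differed from each other by more than the means of the hairpins did. Erg stood at 84.3 and 189 against 119 and 59.2 CPM (0.52 ± 0.608), and Nos3 at 17.9 and 28.9 against 45.8 and 23.0 (-0.65 ± 0.842).

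Tcf4 and Icam1 were the members whose shJun animals both lay above both shNT animals, an order that 2 animals on each side can give by chance. How many of all genes were ordered like this, here or in CM-like cells, is not given. Tcf4 stood at 1938 and 2741 CPM against 1623 and 1479, a log2 difference of 0.44 ± 0.357 with an unadjusted p of 0.254. These Tcf4 levels, those of shNT included, all lay above the wild-type range of 774 to 1286, in hearts that differed in virus and depth. Median UMIs per cell lay between 25339 and 43450 in knockdown and between 3979 and 16986.5 in wild-type animals. In Mural-like cells Tcf4 stood at 1260 and 701 CPM with shJun and 1146 and 1451 with shNT, against 804 at most in wild-type hearts. In Erythroid-like cells it lay between 766 and 997 CPM in the knockdown animals, against 131 at most in wild-type hearts. The T cell-like levels were 479.5 and 747 against 316 at most. Macrophage-like levels ran from 461 to 992 against 540.5 at most, and Fibroblast-like levels from 636 to 1089 against 853 at most. The CM-like levels did not pass the wild-type highest of 415, a sum of 10 cells. Icam1 stood at 8.08 and 2.10 CPM against 0.230 and 0.110, with a log2 difference of 4.71 ± 1.56 and an unadjusted p of 0.0199 in edgeR. The Icam1 counts came from few cells, since 69 of the 71 UMIs of shJun animal 1 lay in 1 cell, as did 18 of the 22 of shJun animal 2, and the shNT animals held 2 and 1 UMIs. Other measures differed between these animals as well. The sum of the 8 endothelial markers was 5714 and 6880 CPM in the shJun and 4644 and 4995 in the shNT animals, and the share of cells with an Mki67 or Top2a UMI was 11.5 and 26.5% against 19.0 and 12.6%. This share also depends on depth, and the Mki67 level was 2.62 and 35.6 CPM against 91.4 and 6.85. Xist stood at 203.5 CPM in shJun animal 1 and at 3.11 or less in the others, and its part in these values was not tested.

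**Figure D5:**
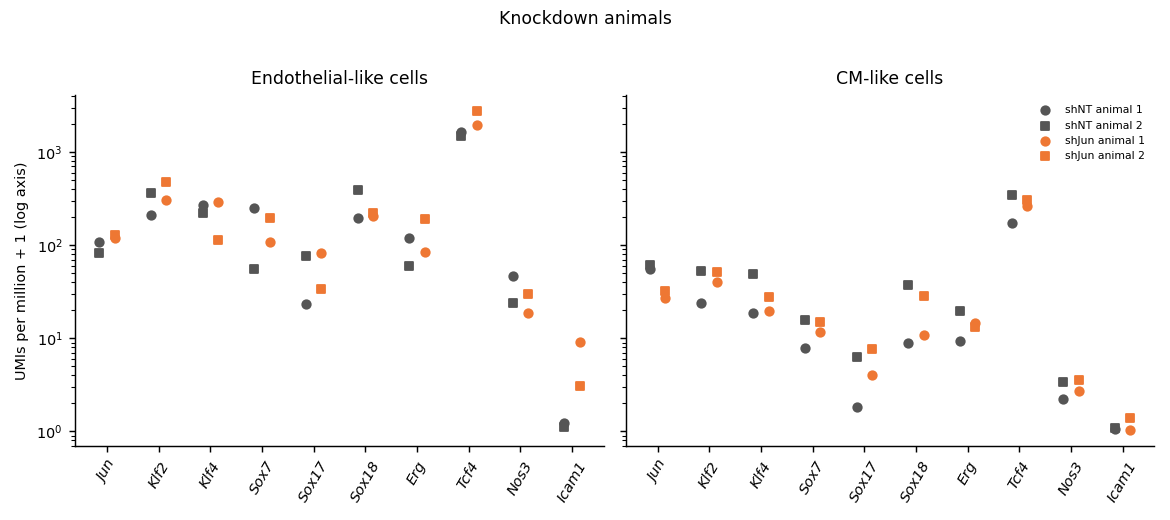
CPM + 1 (log axis) of Jun and the 9 members in Endothelial-like and CM-like cells of the knockdown hearts, where grey is shNT, orange is shJun, circles are animals numbered 1 and squares animals numbered 2. Jun in CM-like cells is lower in both shJun animals (26.3 and 31.5) than in both shNT animals (54.2 and 60.3), and every member overlaps between hairpins there.

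In CM-like cells, where Jun was lower in each shJun animal, all 9 members overlapped between hairpins. Klf2 stood at 39.2 and 50.5 CPM with shJun and at 22.8 and 51.5 with shNT, Klf4 at 18.9 and 27.0 against 17.8 and 47.6, and Tcf4 at 259 and 301 against 171 and 347. Sox7 lay between 6.94 and 14.9 CPM over the 4 animals, Sox17 between 0.812 and 6.71, Sox18 between 7.81 and 36.1, Erg between 8.33 and 18.6, Nos3 between 1.22 and 2.56 and Icam1 between 0.0255 and 0.379. For every member but Icam1 shNT animal 1 was the lowest of the 4, and the endothelial markers summed to 279 CPM in its CM-like cells against 557.5 to 738 in the others. Of the 8 members tested 0 were called by edgeR, 0 had an unadjusted p below 0.05 and DESeq2 called 0. Of all genes 0% were called by edgeR, with 415 of 17993 at an unadjusted p below 0.05 and 12 called by DESeq2. Without shNT animal 1 edgeR called 355 genes. With animals that shared chips as a block, edgeR called 10 genes and 0 of the members, and the adjusted p of Jun was 0.712. The test of whether the hairpin difference itself differed between both classes called 0% of 17484 genes in edgeR and 0 of the 9 members, with 512 genes and 0 members at an unadjusted p below 0.05 and 62 genes and 0 members called by DESeq2. The unadjusted p of Klf2, Klf4, Sox7, Sox17, Sox18, Erg, Tcf4, Nos3 and Icam1 in that test lay between 0.253 and 0.976 in edgeR.

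The lists around the members held 0 genes called by edgeR in the Endothelial-like knockdown comparison. Their median log2 differences lay between -0.23 for the Klf target genes and 0.20 for the immediate early genes, beside 0.01 over all genes. Of 82 list genes 1 had an unadjusted p below 0.05 in edgeR, and it was also the 1 that DESeq2 called. This gene was Fos, which encodes an AP-1 partner of JUN, at 4.09 and 20.97 CPM with shJun and 297 and 23.5 with shNT. Its log2 difference was -3.68 with an unadjusted p of 0.0234 in edgeR, and shNT animal 1 stood apart from the other 3 animals. For the 15 immediate early genes the summed level was 1018 and 1079 CPM with shJun and 1577 and 578.5 with shNT. In this sum the hairpins overlapped, while Fos and Jun are in the list and did not.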

How the data were processed

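Single cells of 18 ICELL8 chips were analysed. The authors deposited a table of raw UMI counts per well and gene for each chip, made by alignment to mm10 with STAR 2.5.2b and counting with featureCounts of Subread 1.4.6-p1, per the submitters' processing notes, and a report per well that names the animal, the hairpin and, except for the P4 and P7 animals and P28 animal 3, the cell fraction. Whether the counting used strand, and how doublets were treated beyond imaging of the wells, is not given in the sources used here, and no doublet caller was run. All 23656 wells summed to the totals in the reports. Cells with at least 500 genes and a log10 UMI total within 2 SD of a mean were kept (19999). This mean was taken over all cells of a stage, or of the knockdown, and not per chip. Left out were 35 mitochondrial genes and 100 spike-in and reporter columns. Symbols from GENCODE vM21 matched 34891 of 35843 Ensembl genes.

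Cells were clustered per stage, and once for all knockdown chips, with Leiden clustering (leidenalg 0.10.2, scikit-learn 1.9.0, Python 3.11.15), and named from marker lists, with the members and list genes left out of both. Some clustering choices (unscaled principal components, joint clustering of the knockdown chips, the rule for erythroid and for unnamed clusters) were made after the clusters were seen. UMIs were summed per animal and class (sums of at least 10 cells) and tested with edgeR 4.0.16 (quasi-likelihood, TMM, filterByExpr, Benjamini-Hochberg threshold 0.05 over all genes tested, R 4.3.3), with the stages in 1 fit. DESeq2 1.42.0, no filter, other scalings, thinning to 5000 UMIs, other clusterings and leaving out animals were alternatives. The pipeline was tested on simulated data. Knockdown animals with the same number shared chips. The correlation of their deviations was 0.039 in Endothelial-like and 0.32 in CM-like cells, and a fit with this number as a block is given beside the results it changes.

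The text names the 9 members in every comparison, in some as a group, up to 4 called genes of each list, and the 3 genes most like each member over sums with a mean of at least 10 CPM. The members and lists were chosen with earlier results of these data known. Intervals and limits for counts of 0 cover counting error only. Chip totals ran from 11161784 to 133264535 UMIs, and p-values measure the spread between the animals named in the well tables.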

Additional observations from a re-analysis of the deposited data

Results flagged for a closer look

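P28 animal 3 stood apart from the other P28 animals in Endothelial-like cells for a pair of members, and its cell fraction was not given in the well tables. Its Klf4 level was 283.7 CPM, the highest of 5, with the others between 100.4 and 144. Its Sox17 level was 159.8 CPM, also the highest of 5. In each case the gap to the nearest animal was large against the whole range of the stage. Of 18 groups of member levels looked at in this way, 2 stood out, and chance alone singles out about 1 in 20 groups.

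Jun had the opposite order of hairpins in Endothelial-like and CM-like cells of the knockdown hearts, with both shJun animals above both shNT animals in the former and below them in the latter. The difference of the log2 differences was 1.30 with an unadjusted p of 0.0771 and an adjusted p of 1 in edgeR, so it did not pass the threshold.

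Members were also seen in the 90 negative control wells, which received no cell, held a median of 198 UMIs each and entered no comparison. They held 6 UMIs of Klf2 and 13 UMIs of Tcf4 among 51790 UMIs, which come to 116 and 251 CPM with exact Poisson 95% intervals of 42.5 to 252 and 133.7 to 429.2. Klf4 had 2 UMIs, Sox7 had 3 and Erg had 1 there, and Sox17, Sox18, Nos3 and Icam1 had 0.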

How the results depend on the processing

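Of 847 values of members recomputed under the alternatives, 779 kept their direction and side of the threshold, 43 turned in sign, 19 lost and 6 gained a call. Where no value below shows it, the cause of a shift was not tested. Counts of called genes moved most. In order of P4 to P7, P7 to P14, P14 to P28 and CM-like P7, edgeR called 1, 82, 0 and 599 genes and DESeq2 81, 564, 119 and 1286. DESeq2 called 126, 12 and 62 in the Endothelial-like, CM-like and difference-of-differences tests of the knockdown, where edgeR called 0. Without a filter the counts were 5 (P4 to P7), 1068 (CM-like P7), 83 (Endothelial-like knockdown) and 1 (difference of differences). Thinned to 5000 UMIs per cell, they were 4, 1 and 8 for P4 to P7, P14 to P28 and CM-like P7. At lower resolution they were 16, 78 and 308 for P7 to P14, P14 to P28 and CM-like P7, and no value could be had for P4 to P7 and for the knockdown tests of Endothelial-like cells. Sums per chip gave 0 for P4 to P7 and 350 for CM-like P7, leaving out the most mixed cells gave 316 for the latter, and adding Endocardial-like clusters gave 2 for the former. Scaled variable genes, total UMIs and the sums without P28 animals 4 and 5, dividing cells or P28 cluster 9 were tried after the data were seen. Dividing cells here are those with an Mki67 or Top2a UMI, a share that also depends on depth. Scaled variable genes gave 7 for P4 to P7. Without P28 animals 4 and 5 the counts were 25 for P4 to P7 and 268 for P7 to P14, without dividing cells 0 and 13, and without P28 cluster 9 the count for P14 to P28 was 90. With total UMIs P14 to P28 gave 5 and CM-like P7 1215, of which 1016 were higher and 199 lower, against 307 and 292 with TMM. The replicate block gave 10 in the CM-like knockdown and turned Sox7 in the Endothelial-like one to 0.184, and it changed no other call of a member.

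Sign changes were all among members that were not called. On the log2 scale, Sox17 from P4 to P7 was -0.267 with thinned cells, -0.191 with scaled genes, -0.0969 with total UMIs and -0.453 without dividing cells. Klf4 in that comparison was 0.138 with scaled genes and 0.0703 with Endocardial-like clusters. Tcf4 from P7 to P14 was -0.0524 without a filter, -0.113 thinned, -0.318 with total UMIs and -0.0449 without dividing cells, and from P14 to P28 it was 0.0138 at lower resolution and 0.102 with total UMIs. Nos3 from P14 to P28 was 0.381 at lower resolution and 0.312 without cluster 9. Klf2 in CM-like cells at P7 was 0.747 with scaled genes, a setting with 16 and 21 CM-like cells in the P14 animals. In the Endothelial-like knockdown, Sox17 was -0.0275 with DESeq2, Sox7 was 0.196 thinned, 0.0024 with total UMIs and 0.183 with Endocardial-like clusters, Klf2 was -0.0180 with those clusters, and thinned cells gave 0.141 for Sox18 and -0.0859 for Erg.

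With each animal left out in turn, counts ran from 0 to 5 for P4 to P7, 0 to 107 for P7 to P14, 202 to 1018 for CM-like P7 and 0 to 355 for the CM-like knockdown. The P4 to P7 count was 0 without any 1 of the P4 or P7 animals and 5 without P28 animal 5, the P7 to P14 count was 0 without P14 animal 2 or P7 animal 1, the CM-like P7 count was lowest without P4 animal 1 and highest without P7 animal 2, and the CM-like knockdown count was 355 without shNT animal 1 and at most 1 without another. Over the same fits, P4 to P7 ran from -0.158 to 0.285 for Sox17, -0.0184 to 0.845 for Erg, -0.378 to 0.228 for Klf2, -0.440 to 0.201 for Klf4 and -0.534 to 6.54 for Icam1. Icam1 ran from -6.58 to 1.24 for P7 to P14. P14 to P28 ran from -1.12 to 0.202 for Sox18 and -1.12 to 0.0701 for Nos3, both positive without P14 animal 1. In CM-like cells at P7, Klf4 ran from -2.37 to 0.0712 and Erg from -9.66 to 1.36, the low end without P7 animal 2, which leaves an animal with 0 Erg UMIs and a value set by the prior count. In the Endothelial-like knockdown the ranges were -0.671 to 1.17 (Sox7), -0.822 to 1.44 (Sox17), -1.20 to 0.157 (Sox18), -0.239 to 0.918 (Klf2), -1.30 to 0.123 (Klf4) and -0.138 to 0.976 (Erg). Where this left 1 animal, it is assumed to vary like the rest.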
